A study of Mus musculus with 8 samples.

Results

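The genes described here were 10 mouse genes of sterol transport and of the liver X receptors (LXRs): Npc1l1 and Scarb1 for uptake, Soat2 for esterification, Abcg5, Abcg8 and Abca1 for efflux, the receptor genes Nr1h3 and Nr1h2, and the LXR targets Lpcat3 and Mylip. They were chosen by symbol, and each symbol matched 1 of the 56980 Ensembl gene identifiers in the count files. RNA sequencing of polyadenylated RNA was performed on jejunal mucosal scrapings from male mice, with 4 libraries per genotype. FFA2 fl/fl mice carried the floxed allele of Ffar2, the gene of the fatty acid receptor FFA2, and no Cre, and served as controls. Adipoq-F2-KO littermates carried the same floxed alleles and Adiponectin-Cre, whose adiponectin promoter directs the deletion to adipocytes. Littermates of both genotypes were co-housed on normal chow to 12 weeks of age and then received a Western diet with 10% fructooligosaccharides for 2 weeks in thermoneutral housing. No library came from another diet or age, so every value below belongs to that feeding condition.

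Dietary cholesterol enters the jejunal enterocyte through the brush border transporter NPC1L1. Inside the cell it is either esterified by SOAT2 (also called ACAT2) and packed into chylomicrons, returned to the lumen by the ABCG5/ABCG8 pair, or passed to apolipoprotein A-I at the basolateral side by ABCA1. Oxysterols made from excess cholesterol activate LXRα and LXRβ, which pair with retinoid X receptors, bind paired half-sites in DNA and raise transcription of the efflux genes, while low sterol in the endoplasmic reticulum activates SREBP2, which raises the genes of cholesterol synthesis.

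Abcg5 and Abcg8 lie head to head on chromosome 17 and are transcribed away from each other, and Abca1 holds a well-known LXR half-site pair close to its start, so these stretches are shown. The bases between the RefSeq starts of Abcg5 and Abcg8 (GRCm38.p6, chr17:84683012-84683120, plus strand, 109 bases) run from the Abcg5 start on the left to the Abcg8 start on the right, with capitals at the 2 matches to the GATA factor motif AGATAA, both on the minus strand. For Abca1 (GRCm38.p6, chr4:53159896-53160002, minus strand, 107 bases, 5′ to 3′ along the gene), capitals mark the half-sites of the best match to the LXR repeat.
Abcg5-Abcg8: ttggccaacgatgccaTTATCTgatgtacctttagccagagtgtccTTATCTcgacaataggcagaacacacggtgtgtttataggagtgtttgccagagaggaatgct
Abca1: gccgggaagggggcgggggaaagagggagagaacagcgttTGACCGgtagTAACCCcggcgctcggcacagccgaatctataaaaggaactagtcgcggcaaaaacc

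RefSeq windows of 250 bases before to 50 bases after a start were searched on both strands for 8 of the 10 genes (10 windows, since Nr1h3 and Abcg8 have more than 1 listed start). Scarb1 and Soat2 had no window. The Abca1 site read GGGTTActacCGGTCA on the plus strand, 67 to 52 bases before the start, with 3 mismatches over the 12 fixed letters of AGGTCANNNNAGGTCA. It was the only window of the 10 with a match within 3 mismatches, and 21.9% of the 32851 mouse promoter windows hold one. The GATA motif was found in 2 of the 10 windows, those of Abcg5 and Abcg8 over their shared stretch, and in 11.2% of all windows. TATAAA, searched on both strands as well, was present in 4 of the 10 windows (Abca1, Mylip, Abcg5 and Abcg8) and in 13.6% of all windows. These are letter matches and were not tested for binding.

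The libraries held 6007654 to 21712776 counts. Of the 8 libraries, 5 held at least 10000000 counts (FFA2 fl/fl 1, 2 and 4, Adipoq-F2-KO 1 and 2), and the other 3 (FFA2 fl/fl 3, Adipoq-F2-KO 3 and 4), called shallow below, also stood apart in tissue markers. Summed over each list, normalized counts (raw counts scaled by each library's DESeq2 size factor) of 6 adipocyte markers were 124 to 381 in the shallow and 5.45 to 14.3 in the deep libraries, and those of 3 distal small intestine markers were 424 to 1449 against 31.1 to 79.7. The 13 villus enterocyte markers were detected in all 8 libraries, with sums of 509586 to 573178, and the 6 pancreas markers summed to 0 to 5.64. The deleted gene gave 2 to 18 raw counts of Ffar2 per library in mucosa, and because the deletion is in adipocytes these counts do not check the genotype labels. Fewer cells of a type and less RNA per cell cannot be told apart in such bulk samples.

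Per length of transcript, the uptake gene Npc1l1 was the most abundant of the 10 and Scarb1 the least. Levels between genes are given as reads per kilobase of exon per 1000000 counts (RPKM), averaged over the 8 libraries. Npc1l1 stood at 304 RPKM, at rank 95 of 15711 tested genes with a known length, and ranged from 272 to 347. Abcg5 followed at 155 and Lpcat3 at 145 RPKM, Abcg8 at 111 and Soat2 at 102. From Abcg5 to Soat2, each gene overlapped in range with the one below it in this order. Abcg5 was above Lpcat3 in 5 of 8 libraries, Lpcat3 above Abcg8 in 8 of 8 and Abcg8 above Soat2 in 6 of 8. Abca1 was lower at 47.3 RPKM, and its range of 39.3 to 60.4 lay clear of those on either side. The LXR genes followed, Nr1h3 at 19.6 and Nr1h2 at 19.5 RPKM, with overlapping ranges. By RPKM, Nr1h3 was the higher in all 4 FFA2 fl/fl libraries and Nr1h2 in all 4 Adipoq-F2-KO libraries. In normalized counts, which are not scaled by length, Nr1h2 was above Nr1h3 in every library. The order of these 2 genes thus depends on the exon lengths used, 2515 bases for Nr1h3 and 3354 for Nr1h2, and the split was not tested. Mean levels were 21.5 for Nr1h3 and 19.1 for Nr1h2 in the controls, and 17.6 and 20.0 RPKM in the knockouts. Mylip stood at 4.85 and Scarb1 at 0.513 RPKM, so that Npc1l1 was 593-fold above Scarb1 per length.

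**Figure D1:**
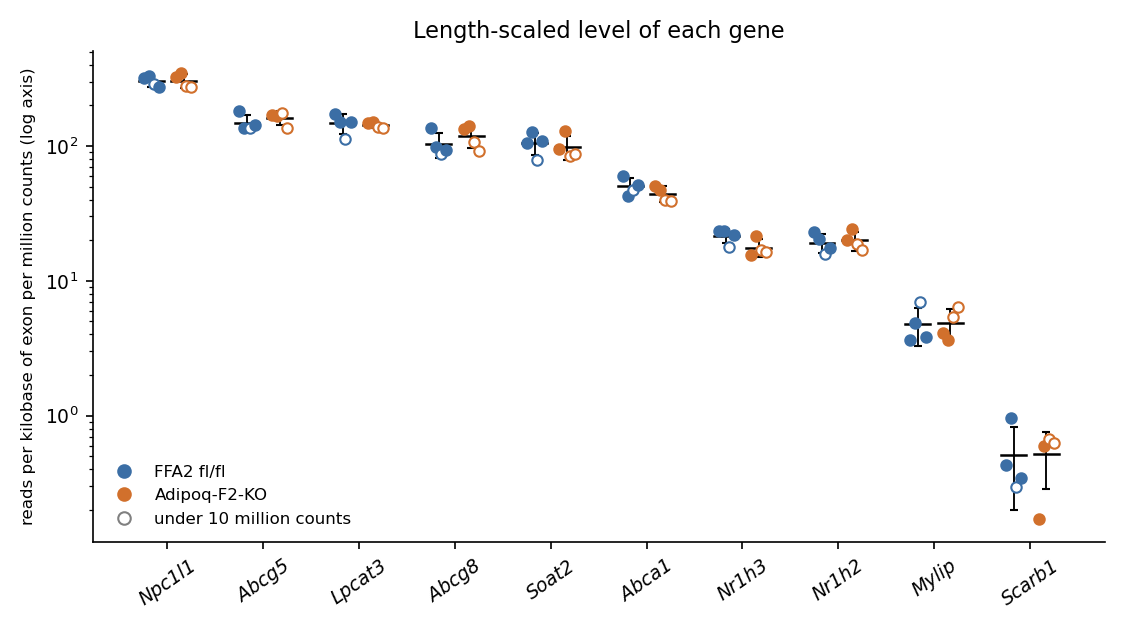
Length-scaled level of each gene (vertical log axis, reads per kilobase of exon per 1000000 counts) in 4 FFA2 fl/fl (blue) and 4 Adipoq-F2-KO (orange) libraries, ordered by mean; open circles are libraries under 10000000 counts, bars the genotype mean and whiskers 1 SD. Levels run from 304 RPKM for Npc1l1 to 0.513 RPKM for Scarb1, and the genotypes overlap at every gene.

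None of the 10 genes was called different between genotypes. DESeq2 Wald tests were adjusted by the Benjamini-Hochberg method over all 15986 tested genes, those that reached 10 counts in 4 or more libraries. At an adjusted p below 0.05, 0 of the 10 passed, where 0.0375% of all tested genes (6) did. An unadjusted p below 0.05 was reached by 1 of the 10, Nr1h3, against 3.03% of all tested genes (485), and edgeR's quasi-likelihood test likewise gave 0 and 1. In no member did the 4 Adipoq-F2-KO values lie wholly above or below the 4 FFA2 fl/fl values, a separation seen in 2.12% of tested genes. Of the members, 6 had a fold change above 0 on the log2 scale and 4 below, with a median of 0.02, against 48.5% above and a median of -0.01 over all tested genes. All 10 passed the low-count filter. The labels number the samples of a group and do not state that each was a separate mouse, so p-values measure the spread between these libraries.

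Npc1l1 (ENSMUSG00000020447, chromosome 11), the sterol importer and target of ezetimibe, differed little between libraries. Its normalized counts were 16517, 16842, 16207 and 14539 in FFA2 fl/fl libraries 1 to 4, and 17270, 17456, 15188 and 15044 in Adipoq-F2-KO libraries 1 to 4. The highest and lowest libraries were 1.2-fold apart, the smallest spread of the 10, and the genotypes overlapped. The fold change was 1.01 (95% interval 0.893 to 1.15, log2 0.02 ± 0.09 SE, DESeq2 unadjusted p = 0.834, adjusted p = 0.9998). In the 5 deep libraries the log2 fold change was 0.12 ± 0.11 (SE).

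Scarb1 (ENSMUSG00000037936, chromosome 5), which encodes the high-density lipoprotein receptor SR-BI, had low and variable counts. Raw counts were 70, 178, 15 and 45 in FFA2 fl/fl and 22, 92, 35 and 35 in Adipoq-F2-KO libraries 1 to 4. After normalization this was 42.4, 93.8, 31.4 and 34.8 against 17.4, 57.0, 70.1 and 65.8, and the genotypes overlapped. The 95% interval of the fold change, 0.527 to 1.93, was the widest of the 10, so that changes within it could not be resolved. Values spread more widely among the deep libraries, 17.4 to 93.8, than among the shallow ones, 31.4 to 70.1.

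Soat2 (ENSMUSG00000023045, chromosome 15), the enterocyte enzyme that esterifies absorbed cholesterol, had normalized counts of 2669, 3207, 2202 and 2878 in FFA2 fl/fl and 2521, 3205, 2286 and 2390 in Adipoq-F2-KO libraries 1 to 4. The genotypes overlapped, whereas the 3 shallow libraries, 2202 to 2390, lay below all 5 deep libraries, 2521 to 3207. The fold change between genotypes was 0.949 (95% interval 0.771 to 1.17, DESeq2 adjusted p = 0.9998). Within the deep libraries it was -0.03 ± 0.16 (SE) on the log2 scale.

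The luminal efflux pair had fold changes above 1 that did not pass the test. Abcg5 (ENSMUSG00000040505, chromosome 17, minus strand) had normalized counts of 5664, 4185, 4630 and 4632 in FFA2 fl/fl and 5536, 5071, 5852 and 4499 in Adipoq-F2-KO libraries 1 to 4. Its partner Abcg8 (ENSMUSG00000024254, chromosome 17, plus strand) had 5878, 4195, 4082 and 4166 against 5999, 5919, 4911 and 4256. For both genes FFA2 fl/fl library 1 was high among the controls and Adipoq-F2-KO library 4 was low among the knockouts, so the genotypes overlapped. Fold changes were 1.10 (0.92 to 1.31) for Abcg5 and 1.15 (0.922 to 1.44) for Abcg8 (DESeq2 adjusted p = 0.9998 for each). For Abcg8 the log2 fold change was 0.20, and it was 0.35 without FFA2 fl/fl library 1 (unadjusted p = 0.0158, adjusted p = 0.9999, DESeq2). Leaving out any other library gave 0.14 to 0.29, and for Abcg5 the range over all 8 omissions was 0.07 to 0.23. In the 5 deep libraries the log2 fold change was 0.32 ± 0.19 (SE) for Abcg8 and 0.13 ± 0.16 (SE) for Abcg5.

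The proteins of this pair work as an obligate heterodimer. In normalized counts, which are not scaled by length, the 2 transcripts were close to equal, and per kilobase of exon Abcg5 was the higher in all 8 libraries. The ratio of Abcg5 to Abcg8 normalized counts was 0.964, 0.998, 1.13 and 1.11 in FFA2 fl/fl libraries 1 to 4 and 0.923, 0.857, 1.19 and 1.06 in Adipoq-F2-KO libraries 1 to 4. The genotype means were 1.05 ± 0.0839 and 1.01 ± 0.149 (SD, n = 4 each), closer to each other than the spread within either genotype. Per kilobase of exon the ratio was 1.45 ± 0.116 and 1.39 ± 0.205, with single libraries at 1.18 to 1.65. The 2 genes share 82 exonic bases on opposite strands, 3.0% of Abcg5, whose reads could go to either gene if strand was not used. Import relative to efflux, taken as Npc1l1 over the mean of Abcg5 and Abcg8 in normalized counts, averaged 3.48 ± 0.504 for the controls and 3.11 ± 0.263 for the knockouts (SD over 4 libraries). Ratios in single libraries ran from 2.86 to 4.02 in FFA2 fl/fl and from 2.82 to 3.44 in Adipoq-F2-KO.

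Abca1 (ENSMUSG00000015243, chromosome 4), the basolateral exporter that forms high-density lipoprotein and a classical LXR target, had a fold change below 1 that did not pass either. Normalized counts were 7230, 5049, 6131 and 6326 in FFA2 fl/fl and 6329, 5527, 5047 and 5008 in Adipoq-F2-KO libraries 1 to 4. FFA2 fl/fl library 2 sat among the knockouts and Adipoq-F2-KO library 1 among the controls. The fold change was 0.886 (95% interval 0.738 to 1.06, log2 -0.17 ± 0.14 SE, DESeq2 unadjusted p = 0.197, adjusted p = 0.9998). Within the deep libraries the log2 fold change was -0.07 ± 0.18 (SE). Leaving out each library in turn gave -0.26 to -0.09, the lowest without FFA2 fl/fl library 2 (DESeq2 unadjusted p = 0.0435, adjusted p = 0.9999), -0.25 without Adipoq-F2-KO library 1 and the value nearest 0 without FFA2 fl/fl library 1.

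**Figure D2:**
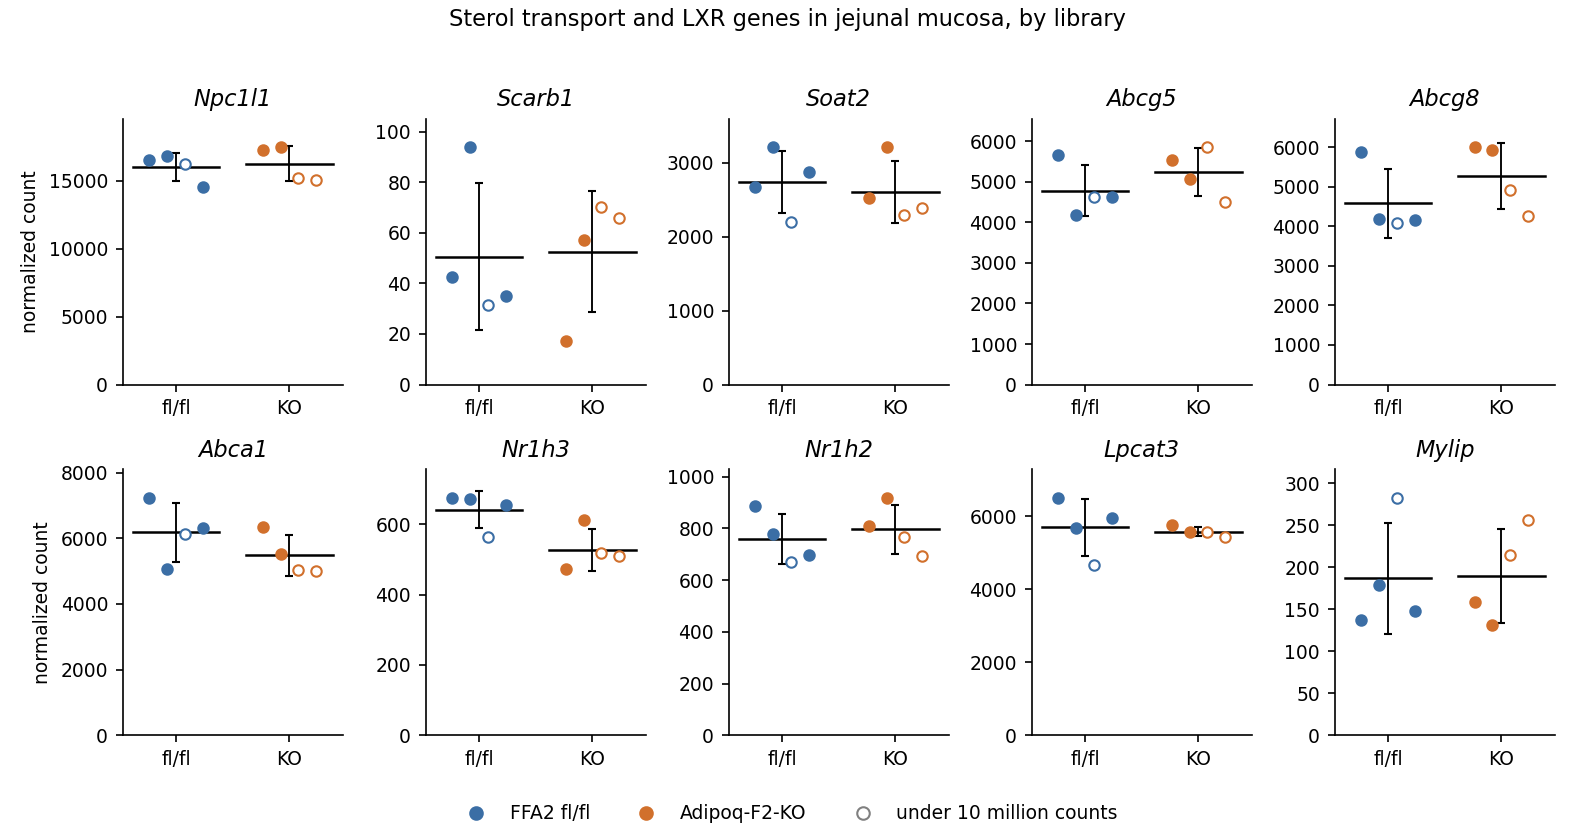
Normalized counts (vertical axes from 0) of the 10 genes in FFA2 fl/fl (blue) and Adipoq-F2-KO (orange) libraries; open circles are libraries under 10000000 counts, bars the mean and whiskers 1 SD (n = 4). The genotypes overlap for every gene, with Nr1h3 closest to separation, 562 to 675 against 471 to 612.

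Of the receptor genes, Nr1h3, which encodes LXRα, was below the controls in Adipoq-F2-KO by the unadjusted p only, and Nr1h2, which encodes LXRβ, had a fold change near 1. Nr1h3 (ENSMUSG00000002108, chromosome 2) had normalized counts of 675, 671, 562 and 655 in FFA2 fl/fl and 471, 612, 518 and 510 in Adipoq-F2-KO libraries 1 to 4. In 3 of the 4 Adipoq-F2-KO libraries the value lay under all controls, and library 2 lay above FFA2 fl/fl library 3. The fold change was 0.822 (95% interval 0.694 to 0.974, log2 -0.28 ± 0.12 SE, DESeq2 unadjusted p = 0.0234, adjusted p = 0.9998). Among all tested genes 1.38% were lower at this threshold. The log2 fold change was negative in all 17 alternative analyses, -0.37 to -0.23, with unadjusted p-values of 0.00239 to 0.103 and 10 of the 17 below 0.05. Without Adipoq-F2-KO library 1, the lowest, the unadjusted p was 0.103 (DESeq2), and in the deep libraries, where 3 controls meet 2 knockouts, it was 0.0621.

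Nr1h2 (ENSMUSG00000060601, chromosome 7) had normalized counts of 888, 778, 669 and 697 in FFA2 fl/fl and 808, 918, 765 and 694 in Adipoq-F2-KO libraries 1 to 4. Both genotypes covered nearly the same span, and the fold change was 1.05 (95% interval 0.873 to 1.26, DESeq2 adjusted p = 0.9998). The difference between the changes of the 2 receptor genes was not tested.

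Lpcat3 (ENSMUSG00000004270, chromosome 6), the LXR target whose enzyme puts polyunsaturated fatty acids into phospholipids and serves chylomicron formation, had normalized counts of 6501, 5665, 4659 and 5940 in FFA2 fl/fl and 5760, 5570, 5558 and 5433 in Adipoq-F2-KO libraries 1 to 4. The knockouts lay within 5433 to 5760, inside the wider range of the controls. The fold change was 0.98 (95% interval 0.84 to 1.14, DESeq2 adjusted p = 0.9998). Its exons share 334 bases, 10.2% of their length, with Emg1 on the opposite strand, which held 2762 counts in all libraries against 53328 for Lpcat3.

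Mylip (ENSMUSG00000038175, chromosome 13), whose product IDOL is an LXR-induced ubiquitin ligase that acts on lipoprotein uptake, had normalized counts of 137, 179, 282 and 148 in FFA2 fl/fl and 158, 131, 214 and 256 in Adipoq-F2-KO libraries 1 to 4. The split followed the library and not the genotype, since the 3 shallow libraries held 214 to 282 and the 5 deep libraries 131 to 179. The fold change between genotypes was 1.02 (95% interval 0.698 to 1.49, DESeq2 adjusted p = 0.9998). Of the 10 genes, 3 had no overlap between shallow and deep libraries (Mylip higher, Soat2 and Lpcat3 lower in the shallow), as did 13.9% of all tested genes.

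**Figure D3:**
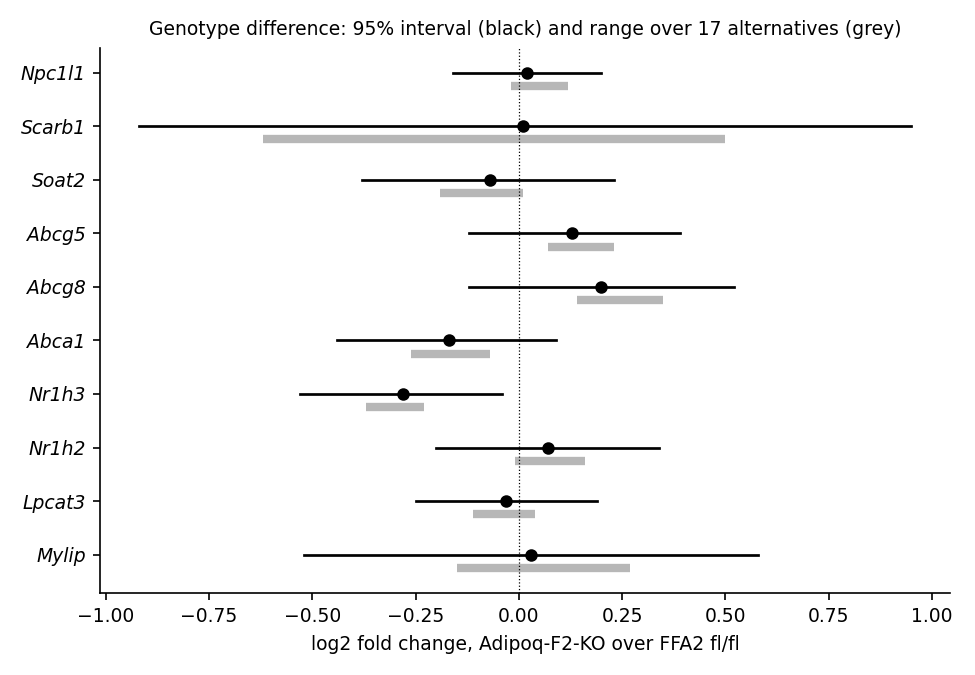
Log2 fold change of Adipoq-F2-KO over FFA2 fl/fl for each gene (point) with its 95% interval (black line), and the range over 17 alternative analyses (grey bar). Only the interval of Nr1h3, -0.53 to -0.04, leaves 0 outside, and the grey bars of Npc1l1, Scarb1, Soat2, Nr1h2, Lpcat3 and Mylip reach both sides of 0.

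Across libraries, the members were compared in 45 pairs by Pearson's r and Spearman's rho of log2(normalized count + 1), with two-sided exact permutation tests over the 8 libraries. No pair passed after Benjamini-Hochberg adjustment over the 45, and 6 had a raw Pearson p below 0.05. The highest correlations were Abcg8 with Nr1h2 (r = 0.875, rho = 0.81, exact p = 0.00937 and 0.0218, adjusted 0.211 and 0.37), Abcg5 with Abcg8 (r = 0.768, rho = 0.595, exact p = 0.0416 and 0.132, adjusted 0.34 and 0.458) and Npc1l1 with Nr1h2 (r = 0.693, rho = 0.762, exact p = 0.0645 and 0.0368, adjusted 0.399 and 0.37). Without the 2 libraries farthest from the median of the first-named gene of the pair, these were 0.881, 0.874 and 0.51. Within the 5 deep libraries they were 0.821, 0.896 and 0.781.

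The 3 lowest values of r all involved Mylip. They were with Lpcat3 (r = -0.788, rho = -0.762, exact p = 0.00627 and 0.0368, adjusted 0.211 and 0.37), with Nr1h2 (r = -0.777, rho = -0.857, exact p = 0.0279 and 0.0107, adjusted 0.34 and 0.37) and with Soat2 (r = -0.737, rho = -0.714, exact p = 0.0453 and 0.0576, adjusted 0.34 and 0.37). Within the deep libraries the values were -0.329, -0.555 and 0.0977, so the relation of Mylip with Soat2 rested on the shallow libraries. Without the 2 libraries farthest from the median of Lpcat3, Nr1h2 or Soat2, in that order, they were -0.633, -0.574 and -0.869. For Soat2 the 2 left out were deep, FFA2 fl/fl 2 and Adipoq-F2-KO 2, so the shallow libraries stayed in. Scarb1 with Abca1 came next by r (r = -0.721, rho = -0.738, exact p = 0.0434 and 0.0458, adjusted 0.34 and 0.37). It was -0.77 without the 2 libraries farthest from the median of Scarb1 and -0.64 in the deep ones.

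The level of smooth muscle markers varied more between libraries than between genotype means, and Lpcat3 moved against it. The summed normalized counts of 10 smooth muscle markers were 3768, 8323, 30426 and 4283 in FFA2 fl/fl and 4149, 8021, 6199 and 12587 in Adipoq-F2-KO libraries 1 to 4. As a level, the mean over markers of centred log2 values, this was -0.19 ± 2.64 and 0.19 ± 1.34 (SD, n = 4 each). Over the 8 libraries Lpcat3 fell as that level rose (r = -0.889, rho = -0.905, exact permutation p = 0.000223 and 0.00456, adjusted over the 10 members 0.00223 and 0.0456). The r was -0.838 without the 2 libraries farthest from the median of that level and -0.767 within the deep libraries. Mylip had the highest positive correlation (r = 0.755, rho = 0.714, exact permutation p = 0.0354 and 0.0576, adjusted 0.177 and 0.208), with 0.649 and 0.265 under the same omissions. The other 8 members lay between r = -0.579 for Abca1 and 0.344 for Scarb1, with adjusted permutation p-values of 0.431 and 0.577 for those 2. Within the deep libraries, r was -0.918 for Abca1, 0.816 for Soat2 and 0.69 for Scarb1, over 5 libraries and with no test. With the smooth muscle level as a covariate in DESeq2, the log2 fold changes were 0.00 ± 0.10 for Lpcat3, -0.01 ± 0.21 for Mylip and -0.27 ± 0.14 for Nr1h3 (SE), the last with an unadjusted p of 0.0461.

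**Figure D4:**
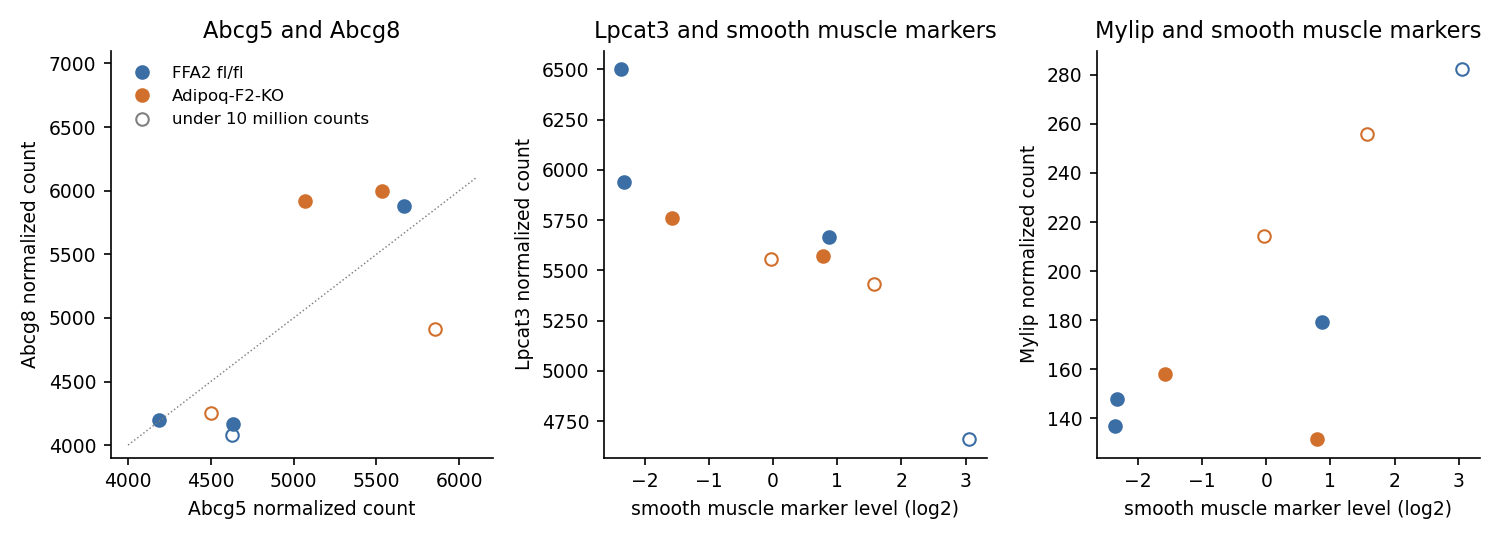
Left, Abcg8 against Abcg5 normalized counts in the 8 libraries, with a dotted line of equality; middle and right, Lpcat3 and Mylip normalized counts against the smooth muscle marker level (centred log2). Colours give genotype (blue FFA2 fl/fl, orange Adipoq-F2-KO) and open circles libraries under 10000000 counts; Lpcat3 runs from 6501 at the lowest marker level to 4659 at the highest.

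Genes whose profile over the 8 libraries was most like that of a member were sought among the 8145 other tested genes with a mean normalized count of at least 100, by Pearson's r and with no test. For Npc1l1 these were Chp1 (0.954), Gpd1l (0.951), Lgals3 (0.95), Mtmr14 (0.948) and Tmem170 (0.942). For Abca1 they were Bcl2l1 (0.976), Ets2 (0.963), Spry2 (0.961), Mex3c (0.946) and Etfbkmt (0.946). The 8 libraries share differences in depth and tissue markers, and these values are descriptions.

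Around the 10 members, 6 further lists covered the rest of the sterol pathway. Of 23 tested genes that move sterol inside the cell, 9 had a fold change above 0 and 14 below (median log2 fold change -0.02), where 48.5% of all tested genes were above 0, and 1 was called, where 0.0375% of all tested genes were. This was Stard4, a cytosolic sterol carrier and SREBP2 target. Its normalized counts were 2873, 2505, 2825 and 2824 in FFA2 fl/fl and 3692, 3334, 3544 and 3910 in Adipoq-F2-KO libraries 1 to 4, with every knockout above every control. Of all tested genes 2.12% separated the genotypes in either direction. The log2 fold change was 0.39 ± 0.09 (SE, DESeq2 adjusted p = 0.0369). The adjusted p stayed below 0.05 in 5 of 17 alternatives and lay between 0.01025 and 0.9994 over them, while the log2 fold change was 0.35 to 0.43 in all 17, and edgeR's quasi-likelihood test gave 0.999.

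Of 13 tested genes of sterol esters and lipoproteins (of 15 listed), 7 had a fold change above 0 (median 0.01), and none was called by DESeq2 or edgeR. An unadjusted p below 0.05 was reached by 2, both higher, where 1.65% of all tested genes were higher at that threshold. Among the 5 tested apolipoprotein genes of the list and Mttp, which loads lipid onto apolipoprotein B, log2 fold changes ran from -0.30 for Apoa2 to 0.22 for Apoa4, all at DESeq2 unadjusted p-values of 0.12 or above.

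Of the further LXR targets, 8 of 13 tested genes lay above 0 (61.5% against 48.5% of all tested genes) with a median of 0.20. At an unadjusted p below 0.05, 1 was higher and 1 lower, where 1.65% and 1.38% of all tested genes were. This count of 2 was 6 without FFA2 fl/fl library 3, 4 in the deep libraries, 0 without FFA2 fl/fl library 2 and 1 without any other library. Abcg1, a sterol exporter of macrophages and other cells, had normalized counts of 37.6, 47.4, 79.5 and 32.5 in FFA2 fl/fl and 82.1, 53.9, 84.1 and 77.1 in Adipoq-F2-KO libraries 1 to 4 (log2 0.64 ± 0.31 SE, DESeq2 unadjusted p = 0.0403, adjusted p = 0.9998). FFA2 fl/fl library 3 lay among the knockouts. Of the macrophage markers, 9 of 10 tested were above 0 as well, with a median log2 fold change of 0.54 and summed normalized counts of 222 to 629 in FFA2 fl/fl and 445 to 805 in Adipoq-F2-KO. None of the 11 listed markers was at 0 in all libraries. The part of these markers in the Abcg1 values was not tested. Mertk, an efferocytosis receptor, had a log2 fold change of -0.26 ± 0.13 (SE, DESeq2 unadjusted p = 0.0413, adjusted p = 0.9998). Of the lipogenic targets, Srebf1 and Scd1 varied widely between libraries, from 1175 to 6448 and from 6372 to 24096 normalized counts. Their log2 fold changes were -0.41 and -0.48 at DESeq2 unadjusted p = 0.425 and 0.289. Fasn (532 to 824) and Acaca (103 to 164) varied less. Log2 fold changes were 0.25 for Fasn, 0.20 for Acaca, 0.47 for Scd2 and -0.17 for Mlxipl, at DESeq2 unadjusted p-values of 0.0974 or above.

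Among LXR partners and coregulators, 10 of 13 tested genes lay above 0 (76.9% against 48.5% of all tested genes) with a median of 0.04, and 2 reached an unadjusted p below 0.05, where 3.03% of all tested genes did. That count was 0 or 1 in each of the 17 alternatives, and 0 in the deep libraries and by the edgeR test. Ncoa1, a coactivator of nuclear receptors, had every knockout, 963 to 1050 normalized counts, above every control, 841 to 940 (log2 0.18 ± 0.09 SE, DESeq2 unadjusted p = 0.0375, adjusted p = 0.9998). Such a separation, in either direction, was seen in 2.12% of tested genes. Sirt1, the deacetylase that acts on LXR, had a log2 fold change of 0.31 ± 0.16 (SE, DESeq2 unadjusted p = 0.048, adjusted p = 0.9998). The main LXR partner Rxra was at -0.04. Of the 9 genes of oxysterol metabolism, 5 passed the low-count filter and none reached an unadjusted p below 0.05 by DESeq2. Cyp27a1, which makes 27-hydroxycholesterol, was the one with the largest change among them at -0.36 (DESeq2 unadjusted p = 0.119), and Hsd3b7 had 0 counts in all libraries.

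Among the SREBP2 targets 18 of 24 tested genes lay above 0 (75% against 48.5% of all tested genes), with a median of 0.12 against -0.01. At a DESeq2 unadjusted p below 0.05, 5 were higher and 0 lower, where 1.65% and 1.38% of all tested genes were, and Stard4 was called. They included, besides Stard4, Hmgcs1, which makes the precursor of mevalonate (log2 0.33, DESeq2 unadjusted p = 0.00907, adjusted p = 0.9998), and Fdft1, the squalene synthase gene. Fdft1 had 50.3, 73.3, 66.9 and 56.5 normalized counts in FFA2 fl/fl and 86.0, 108, 80.1 and 111 in Adipoq-F2-KO libraries 1 to 4 (log2 0.65 ± 0.22 SE, DESeq2 unadjusted p = 0.00351, adjusted p = 0.9656). It shares 774 exonic bases, 18.3% of its length, with Ctsb on the opposite strand, which held 46179 counts in all against 709 for Fdft1, so its values are uncertain. Srebf2 itself was at 0.18.

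**Figure D5:**
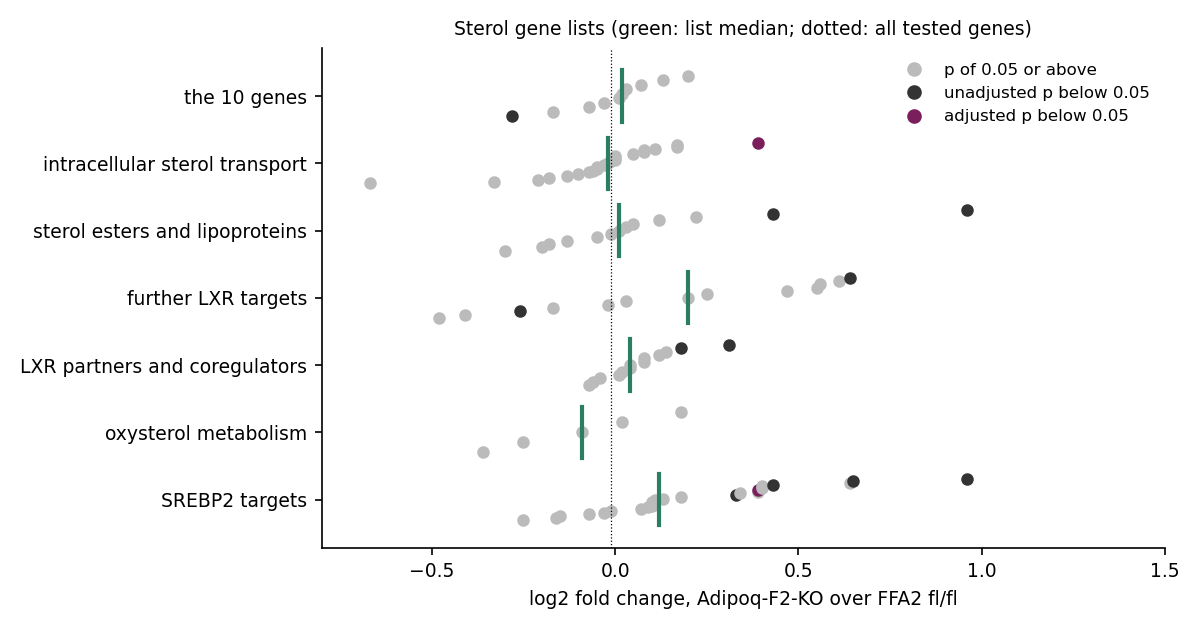
Log2 fold change of Adipoq-F2-KO over FFA2 fl/fl (horizontal axis) for each tested gene of the 10 members and of 6 sterol gene lists; grey points have an unadjusted p of 0.05 or above, black below 0.05, and purple an adjusted p below 0.05. Green bars are list medians, from -0.09 for oxysterol metabolism to 0.20 for further LXR targets, and the dotted line is the median of all tested genes, -0.01; a gene on more than 1 list, such as Stard4, is drawn in each.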

How the data were processed

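Per the labels, the authors trimmed reads with Trimmomatic, aligned them with STAR to a mouse genome (GRCm38, mm10) and assigned them to Ensembl genes with featureCounts. What they deposited are raw counts for every gene and library, with no scaling and no pooling. The strand setting and annotation release are not given in the sources used here. Since 4855 of the 56980 identifiers are absent from GENCODE M21 (GRCm38), gene coordinates are not given, and symbols, chromosomes and exon lengths come from M21. Promoter windows come from RefSeq (GRCm38.p6).

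Groups and library numbers come from the sample titles. The authors' own names for the count tables number some libraries differently, and those numbers were not used. DESeq2 1.42.0 (R 4.3.3), the test the study used, was fitted to all 8 libraries with genotype as the only term, two-sided Wald tests and Benjamini-Hochberg adjustment over the 15986 genes that reached 10 counts in 4 or more libraries. An adjusted p was missing for 8 tested genes, none of them a member. edgeR 4.0.16 (quasi-likelihood) and limma 3.58.1 (voom) were alternatives, and a pseudocount of 1 was used for log2 values. RPKM divides counts by exon kilobases and by the library total, per 1000000 counts. Scripts were tested on simulated data. Intervals are at 95% and reflect the spread between libraries as well as counting error.

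The members and lists were chosen with earlier results of these data known. Genes named were all 10 members, up to 3 per further list with the smallest unadjusted p below 0.05, the 5 genes most like Npc1l1 and Abca1 and the 3 highest and lowest member pairs by r. Apoa2, Apoa4, Mttp, Srebf1, Scd1, Scd2, Fasn, Acaca, Mlxipl, Rxra, Cyp27a1, Hsd3b7, Hmgcs1, Srebf2 and the pair Scarb1 with Abca1 lie outside this rule and were named after their values were seen. Some genes of the lists are counted but not reported by name here. Marker lists were villus enterocyte, smooth muscle, macrophage, B and plasma cell, T cell, fibroblast, endothelium, crypt and proliferation, adipocyte, pancreas, and proximal and distal small intestine. Their median log2 fold changes, where any gene was tested, were -0.02, -0.85, 0.54, 0.91, 0.16, -0.02, 0.12, 0.14 and -0.22 for the first of these up to adipocyte, and 0.06 and 0.73 for the proximal and distal lists. Smooth muscle markers had a negative median although the mean of their level was higher in Adipoq-F2-KO.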

Additional observations from a re-analysis of the deposited data

Results flagged for a closer look

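Of 24 groups of 4 libraries examined (the 10 members and 2 ratios in each genotype), 1 held a library far from the others. FFA2 fl/fl library 1 had 5878 normalized counts of Abcg8, while the other controls had 4082, 4166 and 4195. The gap to the nearest control was 0.937 of the range of the group, above the 95% critical value of Dixon's test. Chance flags about 1 in 20 such groups. The same library was the highest control for 6 of the 10 members, the others being Abcg5, Abca1, Nr1h3, Nr1h2 and Lpcat3, none of which met that criterion.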

How the results depend on the processing

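No member was called at an adjusted p below 0.05 in any of the 17 alternatives. The count of all genes called, 6 by DESeq2, was 2 with edgeR, 1 with limma-voom, 3 without a low-count filter, 3 with size factors from villus enterocyte markers, 78 in the libraries with at least 10000000 counts and 2 to 103 leaving out each library in turn, the most without FFA2 fl/fl library 3 and 23 without FFA2 fl/fl library 2. With the replicate block it was 11, and no member's call changed. Deviations of same-numbered libraries had correlations of 0.542, 0.294, 0.0113 and -0.423 for numbers 1 to 4. The FFA2 fl/fl library was most like its same-numbered knockout for numbers 1 and 2 and not for 3 and 4. The title numbers were therefore not taken to pair the libraries. Members past an unadjusted p of 0.05, 1 by DESeq2, were 0 in the deep libraries and 0 to 1 leaving out each library. The member that passed was Abcg8 without FFA2 fl/fl library 1, Abca1 without FFA2 fl/fl library 2 and Nr1h3 otherwise.

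Fold changes near 0 turned sign. On the log2 scale Npc1l1 was -0.01 with enterocyte size factors and -0.02 to 0.05 leaving out a library. Scarb1 was -0.02 with edgeR, -0.28 with limma-voom, -0.01 with the replicate block, -0.13 with the smooth muscle covariate, -0.01 with enterocyte size factors, -0.62 in the deep libraries and -0.15 to 0.50 leaving out a library. Mylip was -0.01 with the covariate, -0.11 in the deep libraries and -0.15 to 0.27 leaving out a library, and Lpcat3 was 0.00 and -0.11 to 0.04. Leaving out a library, Soat2 ran from -0.19 to 0.01 and Nr1h2 from -0.01 to 0.16. Abcg5, Abcg8, Abca1 and Nr1h3 kept their sign in all 17. The causes were not tested. Scarb1 had 15 to 178 raw counts per library.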
